A study of Sus scrofa with 37 samples.

Results

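Osteopontin, TREM2 and GPNMB mark a state of macrophages that take up debris and lipid, and 8 genes of that programme were followed in contused pig muscle: SPP1, LGALS3, TREM2, TYROBP, GPNMB, LPL, APOE and CHIT1. They were chosen by name with earlier results of these libraries known, from their levels in control muscle and from 4 to 48 h after injury. Every difference of a member between groups is therefore given as a description, with no p-value. Of the 8 genes, 7 were found among the 9418 rows of the deposited count table, all 7 passed the filter on low counts, and CHIT1 (chitotriosidase, a chitin-cleaving enzyme of activated macrophages) was not analysed here.

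Bulk RNA was sequenced from bruised skeletal muscle. The 8 animals were Bama minipigs, a small Chinese breed. There were 9 control libraries and 4, described as biological replicates, at each of 7 times, every 4 h up to 24 h and then at 48 h. Mechanical damage is the treatment on every label, controls included, so the handling of control muscle is not known here, and neither are age and sex. Since 37 libraries came from 8 animals and none is tied to an animal, each p-value below measures spread between libraries, which may share an animal, and is not evidence over animals.

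As background, osteopontin (SPP1) is a secreted phosphoprotein with an integrin-binding RGD motif, and galectin-3 (LGALS3) binds galactosides on glycoproteins and on damaged lysosomes. TREM2 is a lipid-sensing receptor with no signalling tail of its own. It signals through the adaptor DAP12, encoded by TYROBP, and the kinase SYK. GPNMB is a transmembrane glycoprotein of lysosome-rich macrophages, APOE carries lipid out of cells, and LPL releases fatty acids from circulating triglyceride. In muscle these genes are known from macrophages that follow the first neutrophils into injured tissue. LPL is also made by fibres and adipocytes, and in bulk RNA fewer cells of a type and less RNA per cell cannot be told apart.

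Column totals ran from 9860426 to 22877840 counts. Values are counts per 1000000 (CPM) after TMM scaling, which sets libraries on one scale by their typical gene. Libraries 2 and 4 at 48 h stood apart from the other 48 h libraries: over all genes their mean Spearman correlation with the controls was 0.948 and 0.96, against 0.822 and 0.875 for libraries 1 and 3 and 0.937 to 0.957 among the controls. Libraries also fall into 5 sets that no label names, defined from column totals and from the levels of C1QBP, NDUFAF8 and ND6. All 4 libraries at 16 h lie in set 1 with 2 controls, all 4 at 48 h in set 5 with 3 controls, and no control lies in sets 2 or 3, which hold the 4 h libraries.

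Osteopontin had the widest range of the 7 genes in CPM. SPP1 (chromosome 8, 131077786 to 131085334, Sscrofa11.1) lay between 2.21 and 13.5 CPM in the 9 controls, with a median of 4.1. At 4 h the 4 libraries were at 7.09, 139, 22.4 and 9.22 CPM, at 8 h at 139, 65.8, 52.1 and 12.2, and at 12 h at 328, 136, 33.5 and 21.9. Replicate 2 at 4 h was thus as high as the highest library at 8 h, while 2 of the other 4 h libraries lay within the control range. At 16 h the values were 393, 469, 189 and 158 CPM, and at 20 h 161, 415, 336 and 412. At 24 h they were 510, 185, 1560 and 186 CPM, and at 48 h 1178, 115, 527 and 15.9. From 12 h on each injured library was above each control, but library 4 at 48 h only just.

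Group means of SPP1 were higher at each later time up to 24 h, from 5.35 ± 3.60 CPM (SD, n = 9) in control muscle to 44.5 ± 63.5 at 4 h, 67.3 ± 53 at 8 h, then 130 ± 142 at 12 h, 302.1 ± 152 at 16 h and 331 ± 119 at 20 h (SD, n = 4). They were 610.1 ± 651 CPM at 24 h and 459 ± 528 at 48 h. The ranges of neighbours in this order all overlap. The fitted log2 change against control was 3.06 ± 0.78 (SE) at 4 h and reached 6.84 ± 0.84 at 24 h. With the 5 sets as a term it was 8.20 ± 1.06 at 24 h.

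Galectin-3 was high early. LGALS3 (chromosome 1, 184478639 to 184496155) ran from 9.46 to 16.8 CPM in the controls, with a median of 13.4. The 4 h libraries were at 55.3, 39.9, 34.8 and 29.3 CPM, and LGALS3 was the only member with all 4 of them above all 9 controls. At 24 h the values were 88.1, 86.9, 134 and 132 CPM, the narrowest spread of any member at that time relative to its mean (110.3 ± 26.4, SD, n = 4). At 48 h they split into 189 and 173 CPM in libraries 1 and 3 and 33.2 and 22 in libraries 2 and 4. The log2 change was 1.63 ± 0.33 (SE) at 4 h, 1.23 ± 0.34 at 8 h, then 2.46 ± 0.33 at 16 h and 3.10 ± 0.33 at 24 h. At 8 h library 4, at 16.1 CPM, lay inside the control range.

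The receptor TREM2 (chromosome 7, 36465921 to 36471509) was close to the limit of counting in control muscle. The 9 controls held 12 TREM2 counts in all, 5 of them in library 7, and 3 counts in a control library correspond to 0.236 to 0.369 CPM. At 4 h the values were 1.26, 0.815, 0 and 0.11 CPM, at 8 h 0.994, 0.781, 0.588 and 0.331, and at 12 h 2.15, 2.05, 1.64 and 0. At 16 h they were 2.80, 3.36, 1.92 and 2.68 CPM. At 20 h they were 2.61, 4.12, 5.52 and 9.996 CPM, at 24 h 7.60, 3.37, 9.44 and 4.25, and at 48 h 11.9, 1.67, 9.34 and 0.579. TREM2 counts per library therefore stayed at 22 or fewer until 12 h and reached 194 in library 1 at 48 h. Fitted log2 changes of 4.24 ± 0.75 (SE) at 16 h, 5.29 ± 0.72 at 20 h, and of 5.42 ± 0.72 at 24 h and 5.38 ± 0.72 at 48 h rest on those few control counts and depend on the prior count.

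TYROBP, which encodes the adaptor (chromosome 6, 45309199 to 45312562), followed another course. The controls lay between 0.989 and 6.21 CPM with a median of 2.21. At 8 h the libraries were at 36.8, 31.6, 16.4 and 7.39 CPM, all above the controls, when TREM2 was still below 1 CPM. At 20 h they were at 17.1, 22.3, 21.5 and 52.9 CPM, the time of the highest mean (28.4 ± 16.5, SD, n = 4). By 48 h they were at 14.9, 3.02, 8.80 and 1.54 CPM, and 2 of the 4 lay within the control range. The log2 change was 3.12 ± 0.47 (SE) at 8 h, 3.42 ± 0.46 at 20 h and 1.44 ± 0.48 at 48 h. DAP12 serves other receptors than TREM2, among them TREM1 of neutrophils and monocytes.

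GPNMB (chromosome 9, 92037428 to 92071501) came last. It lay between 4.66 and 13.2 CPM in the controls, with a median of 5.54, and its libraries at 4, 8 and 12 h overlapped that range. At 16 h it was at 32.6, 35.2, 22.2 and 24.6 CPM and at 20 h at 15.2, 22.6, 26.1 and 42.2, each above every control. At 24 h the values were 53.1, 35.4, 120.4 and 36.8 CPM, and at 48 h 174, 27.5, 211 and 16.1. GPNMB was the only one of the 5 genes above with its highest mean at 48 h (107 ± 99.6 CPM, SD, n = 4), and its 24 h range lay wholly above its 16 h range. The log2 change was 0.93 ± 0.46 (SE) at 8 h, 2.05 ± 0.44 at 16 h, then 3.15 ± 0.44 at 24 h and 3.95 ± 0.44 at 48 h. Without libraries 2 and 4 it was 4.79 ± 0.37 at 48 h.

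**Figure D1:**
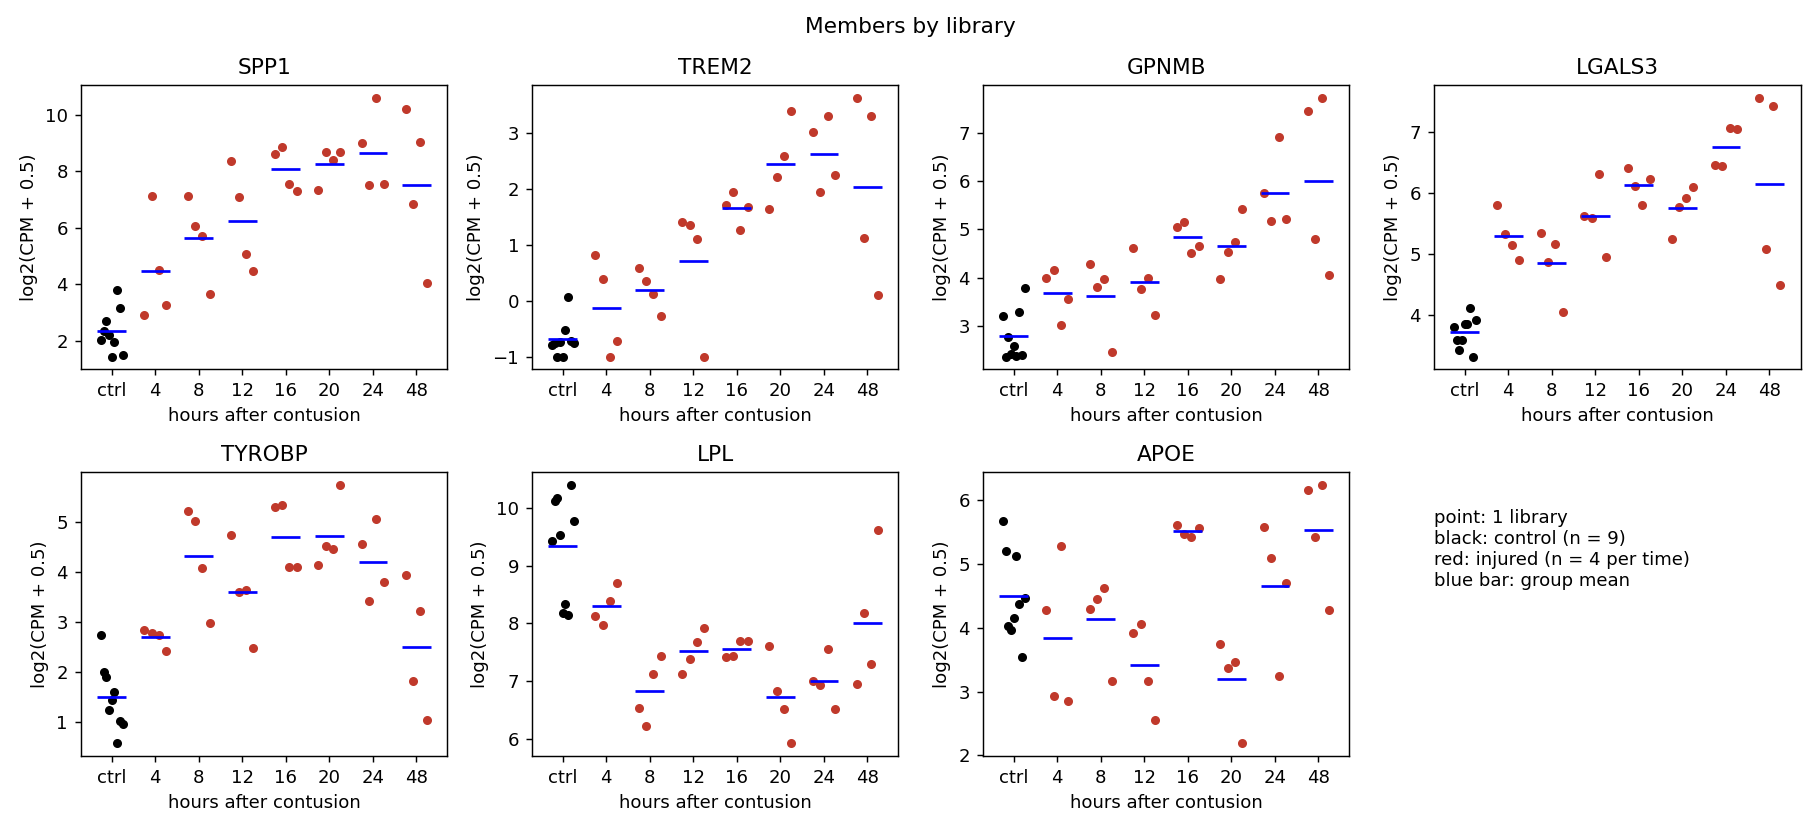
Level of each member in every library, as log2(CPM + 0.5), by hours after contusion; black points are the 9 controls, red points the 4 libraries per time and blue bars group means. SPP1, TREM2, GPNMB and LGALS3 climb toward 24 and 48 h, TYROBP is high from 8 to 24 h, LPL lies below its controls from 8 to 24 h, and the 48 h libraries are split in every panel.

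LPL went the other way. Its gene (chromosome 14, 4104761 to 4134964) was among the well-expressed ones in control muscle, where levels ran from 283 to 1356 CPM with a median of 737. The controls themselves fell into a low group of 3 libraries (291, 323 and 283 CPM in libraries 5, 6 and 7) and 6 libraries at 692 CPM or more. At 4 h LPL was at 279.9, 249.8, 335 and 417 CPM. At 8 h it was at 91.6, 73.9, 139 and 172 CPM, and at 20 h at 194, 113, 91.6 and 60.1. From 8 to 24 h the highest injured library, at 240.5 CPM, was below the lowest control. At 48 h the values were 123, 291, 157 and 791 CPM, so that libraries 2 and 4 lay within the control range. The log2 change was -2.67 ± 0.46 (SE) at 8 h, -2.73 ± 0.47 at 20 h and -1.16 ± 0.42 at 48 h.

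APOE (chromosome 6, 51373113 to 51375333) had no steady direction. The controls ran from 11.2 to 50.2 CPM with a median of 20.1. At 12 h it was at 14.5, 16.2, 8.45 and 5.38 CPM, at 16 h at 48.1, 43.8, 42.2 and 46.6, and at 20 h at 12.9, 9.87, 10.5 and 4.06. At 24 h the libraries were at 47.3, 33.4, 8.93 and 25.5 CPM, and at 48 h at 70.7, 42.2, 74.9 and 18.8. The log2 change was -1.14 ± 0.47 (SE) at 12 h, 0.87 ± 0.42 at 16 h, but -1.41 ± 0.47 at 20 h and 1.07 ± 0.42 at 48 h.

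The swings of APOE at 16 and 20 h went with the library sets. Among controls alone, APOE was at 36.1 and 50.2 CPM in set 1, 20.1 to 34.2 in set 5 and 11.2 to 17.3 in set 4, without overlap. The 16 h libraries, all of set 1, at 42.2 to 48.1 CPM, lay between the 2 controls of that set. The 20 h libraries of set 4 (9.87 and 10.5 CPM) stood just below its 4 controls. At 8 h the 3 libraries of set 1 (19.1 to 24.2 CPM) were below both controls of that set. With the sets as a term the log2 change of APOE was -0.08 ± 0.40 (SE) at 16 h and -0.10 ± 0.37 at 20 h. It was -1.24 ± 0.37 at 8 h, where APOE was then called lower, and 1.00 ± 0.35 at 48 h. Scaled by column totals, APOE was called higher at 16 h (1.19) and at 48 h (1.49). Without control 1 it was called higher at both times too. At 48 h it was also called higher without library 4 or without libraries 2 and 4 of that time. At 12 h APOE was called lower by DESeq2, without control 8, with the replicate block, and without 48 h libraries 2 and 4. In set 5 the 48 h libraries 1 to 3 (70.7, 42.2 and 74.9 CPM) were above its 3 controls and library 4 (18.8 CPM) was not.

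**Figure D2:**
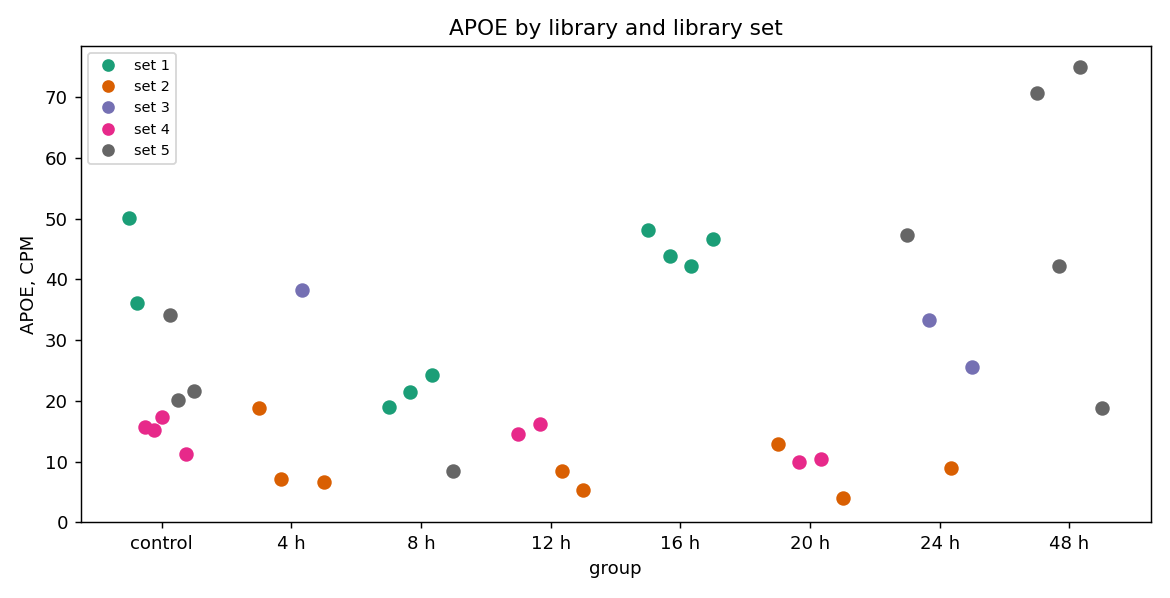
APOE in CPM in every library by group, coloured by library set. Set 1 controls (36.1 and 50.2 CPM) and all 16 h libraries lie between 36.1 and 50.2 CPM, and sets 2 and 4 stay at or below 18.9 CPM at every time. The set 1 libraries at 8 h lie lower, at 19.1 to 24.2 CPM.

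By edgeR's quasi-likelihood test, with Benjamini-Hochberg adjustment over 9411 genes and a threshold of 0.05, SPP1 and LGALS3 were called higher at 4 h, joined by TREM2 and TYROBP at 8 and 12 h and by GPNMB from 16 h on. That is 2 of 7 members at 4 h, 4 at 8 and 12 h and 5 at each of 16, 20, 24 and 48 h. Over all genes the share called higher was, from 4 to 48 h in order, 9.22%, 25.8%, 16.3%, 25.3%, 25.4%, 26.8% and 12.8%. LPL was called lower at all 7 times and APOE at 20 h, against 9.06%, 28.2%, 14.7%, 27.8%, 26.2%, 27.1% and 7.45% of all genes in the same order. Without 4 h library 2, LGALS3 was the only member called at 4 h. These times of first call depend on the setting. With the 5 sets as a term, LGALS3 and LPL lost their calls at 4 h, LGALS3 and TREM2 at 8 h, GPNMB at 16 h, APOE at 20 h and LPL at 48 h. GPNMB was called already at 12 h by DESeq2, and at 8 and 12 h without 48 h libraries 2 and 4. The LPL call at 48 h was lost without any one of controls 1, 2, 3, 4, 8 and 9 or of 48 h libraries 1, 2 and 3, and the APOE call at 20 h without 20 h library 4. As the members were chosen on these comparisons, nothing is read from their counts. The 7 comparisons also share their controls.

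All 4 injured libraries were above all 9 controls for 1 member at 4 h (LGALS3), 1 at 8 h (TYROBP), 2 at 12 h (SPP1 and LGALS3), 5 at 16, 20 and 24 h, and 4 at 48 h, when TYROBP was not among them. The share of all genes with that separation was 2.28%, 13.8%, 6.04%, 17.2%, 14.2%, 16.4% and 1.41% from 4 to 48 h in order. The median log2 change of the 7 members was 1.18, 1.23, 2.00, 2.46, 2.10, 3.10 and 3.02 in the same order, against -0.07 to -0.02 over all genes tested. Scaling by column totals shifts the median log2 change over all genes by -0.15 at 4 h and by 0.35, 0.33, 0.48 and 0.35 from 16 to 48 h, so all directions are relative to the TMM scale. It turned the split of all genes called at 48 h from 1205 higher and 701 lower into 3050 and 298, and at 4 h from 868 and 853 into 354 and 1337. At 16 h the split went from 2380 and 2615 to 3645 and 1355, at 20 h from 2389 and 2462 to 3620 and 1456, and at 24 h from 2521 and 2550 to 4538 and 1178. The directions of SPP1, TREM2, GPNMB, LGALS3, TYROBP and LPL against control were the same on both scales at every time.

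**Figure D3:**
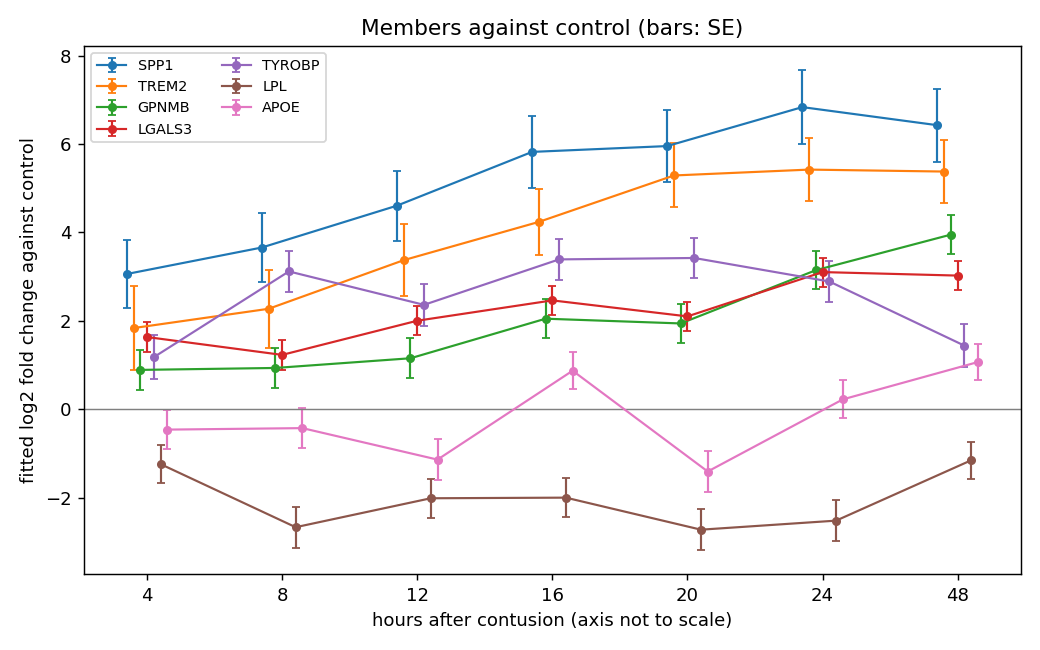
Fitted log2 fold change of each member against the 9 controls at each time, with SE bars; 0 is no difference and the time axis is not to scale. SPP1 reaches 6.84 and TREM2 5.42 at 24 h, GPNMB 3.95 at 48 h, LPL stays below 0 throughout and APOE crosses 0.

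From 24 to 48 h LPL was called higher (log2 change 1.37 ± 0.48, SE), against 10.2% of all genes higher and 9.22% lower. TYROBP differed by -1.45 ± 0.56 and GPNMB by 0.81 ± 0.52, and SPP1, TREM2 and LGALS3 by -0.41 to -0.04. These values depended on the 48 h libraries 2 and 4: without both, LPL was at 0.08 ± 0.49 (SE) and GPNMB, then called, at 1.65 ± 0.46. The LPL call was also lost without either of these 48 h libraries alone, or without any one of 24 h libraries 1, 2 and 4. Scaling by column totals and the 5 sets as a term ended it as well.

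Over the 28 injured libraries SPP1, TREM2, GPNMB and LGALS3 varied together, which is described here without a p-value, since libraries share sets, animals and tissue make-up. On log2(CPM + 0.5) Pearson's r was 0.86 for SPP1 with TREM2 (Spearman's rho 0.90), 0.87 for TREM2 with GPNMB (rho 0.89) and 0.88 for GPNMB with LGALS3 (rho 0.84). Leaving out the 2 libraries farthest from the median of the first gene gave 0.89, 0.85 and 0.82. TYROBP was closer to SPP1 (r 0.66, rho 0.66) than to GPNMB (r 0.33, rho 0.43). Without 2 libraries these values of r were nearer to each other, at 0.62 and 0.52. LPL ran against TYROBP (r -0.78, rho -0.66; -0.68 without 2 libraries), and APOE with LPL gave r 0.01 (rho -0.09).

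Among 8476 other genes with a mean of at least 5 CPM, the nearest in pattern over all 37 libraries (log2(CPM + 0.5)) were as follows. SPP1 was most like RGS10 (r 0.93), a regulator of G-protein signalling in leukocytes, LGMN (r 0.92), the lysosomal protease legumain, and TAGAP (r 0.92), a T-cell activation GTPase-activating protein. TREM2 was most like RARRES1 (r 0.95), VAT1 (r 0.94) and LIPA (r 0.94), the lysosomal acid lipase that frees cholesterol. RARRES1 (r 0.96) and LIPA (r 0.93) also came first for GPNMB, followed by IFI30 (r 0.92), a lysosomal thiol reductase. LGALS3 was nearest to S100A11, IFI30 and NRAS (r 0.93 each). TYROBP was nearest to CD163 (r 0.95), the haemoglobin scavenger receptor of macrophages, SRGN (r 0.95), the granule proteoglycan serglycin, and COLGALT1 (r 0.95). LPL was nearest to genes of muscle energy use and contraction, HSDL2 (r 0.95), MYH7B (r 0.93) and the mitochondrial transhydrogenase NNT (r 0.93). APOE had no such close neighbour: COL18A1 (r 0.84), CAVIN3 (r 0.81) and SFRP5 (r 0.80) were the nearest.

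The label of a macrophage programme was checked against 25 macrophage and monocyte markers, of which 20 had a row. Of these 20, 2 rose at 4 h and 12 at 8 h, then 9, 12, 16, 16 and 19 from 12 to 48 h, and edgeR called none lower at any time (DESeq2 none, and 1 gene lower at 4 h at an unadjusted p under 0.05). Over all genes 9.22%, 25.8%, 16.3%, 25.3%, 25.4%, 26.8% and 12.8% rose from 4 to 48 h in order, and 7.45% to 28.2% fell. The count of 2 at 4 h was thus near the share over all genes. The scavenger receptor MSR1 rose by 1.88 ± 0.55 (SE, log2) already at 4 h (edgeR adjusted p = 0.0177) and by 3.82 ± 0.52 at 8 h (adjusted p = 5.73e-07). CD163 was at 0.43 ± 0.47 at 4 h and rose by 2.14 ± 0.44 at 8 h (adjusted p = 1.74e-04). C1QA and C1QB, subunits of complement C1q made by resident macrophages, differed by -0.30 ± 0.34 and -0.36 ± 0.36 at 24 h. At 48 h they rose by 0.96 ± 0.32 (adjusted p = 0.0321) and 1.17 ± 0.33 (adjusted p = 0.0135). With the 5 sets as a term 5 of 20 rose at 16 h and 16 at 48 h, and 2 fell at 8 h.

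Summed over the 20 markers, macrophage genes ran from 86.3 to 252.8 CPM in the controls, 123.5 to 177.5 at 4 h, 181 to 793 at 8 h and 128 to 468 at 12 h. They ran from 351 to 658 CPM at 16 h, 301.5 to 849 CPM at 20 h, 312 to 574 at 24 h and 162 to 908 at 48 h. At 4 h, when SPP1 reached 139 CPM in one library and LGALS3 was above all controls in each, the macrophage sum was thus within the control range in all 4 libraries. Relative to that sum, SPP1 had a median ratio of 0.0327 in the controls and 0.122 at 8 h, and of 0.544, 0.649, 0.854 and 0.759 from 16 to 48 h. GPNMB per macrophage sum was 0.0438 in the controls, 0.0889 at 4 h and 0.0257 at 8 h, and 0.115 at 24 h and 0.181 at 48 h. At 16 and 20 h, when GPNMB itself was above every control, its median ratios were 0.0544 and 0.0547. Those libraries (0.0511 to 0.0701 and 0.0497 to 0.0595) lay within the control range of the ratio, 0.0307 to 0.0778. TYROBP per macrophage sum was 0.0175 in the controls, lay between 0.0433 and 0.0574 from 4 to 24 h and was 0.0150 at 48 h. At 24 h all 3 median ratios were above those of the controls. At 48 h those of SPP1 and GPNMB were above and that of TYROBP was below. The TYROBP ratios at 48 h (0.00749 to 0.0186) overlapped those of the controls (0.00806 to 0.0288). All 48 h libraries are of set 5, whose controls 6, 7 and 9 had TYROBP at 2.54, 0.989 and 1.45 CPM. Their macrophage sums were 153, 120 and 180 CPM, so their TYROBP ratios lay below the control median. The direction of TYROBP at 48 h thus depends on the controls used.

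Other cell types moved as well, and their part in the members' differences was not tested. Of 15 neutrophil markers, 6 had a row, and their sum ran from 1.37 to 12.3 CPM in the controls, 18.1 to 298 at 8 h and 2.80 to 43.4 at 48 h. Among the 9 without a row are the defining receptors CXCR1 and CXCR2. By edgeR all 6 rose at 8 h, 5 at 16 and 20 h, and none at 4 h (none by DESeq2 or at an unadjusted p under 0.05). Lymphocyte markers had 1 row of 15 (NKG7) and dendritic cell markers 0 of 7, so CD3E, CD79A and FLT3 were not analysed here. Of 12 muscle fibre markers, 6 had a row, and their sum ran from 55571 to 104070 CPM in the controls, 17504 to 28840 at 24 h and 16548 to 64499 at 48 h. The creatine kinase gene CKM was among these 6, but ACTA1, MYH1, MYH2, MYH4, MB and TTN, which define fibres, had no row, so the tissue label was checked on the other 6 only. The 10 adipocyte genes with a row summed to 1427 to 3600 CPM in the controls and 829 to 2693 at 20 h, and the 13 fibroblast genes to 2385 to 9178 and 1957 to 5818 CPM. The adipocyte sum was not lower at every time: its median was 1907 CPM in the controls, 3013 at 4 h, 3144 at 12 h and 1297 at 20 h. The 4 osteoclast and giant cell genes with a row summed to 76.8 to 156 CPM in the controls and 85.7 to 146 at 48 h, although 2 of them, ACP5 and ATP6V0D2, rose at 24 and 48 h and NFATC1 fell at 24 h. The list was without CTSK and the fusion genes OCSTAMP and DCSTAMP, which had no row.

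Over the 28 injured libraries the log2 fibre sum ran against SPP1 (r -0.85), and at 48 h libraries 2 and 4 (64499 and 60858 CPM) were within the control range of the fibre sum and libraries 1 and 3 (16548 and 24948 CPM) below it. The part of this difference in the members' values was not tested.

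**Figure D4:**
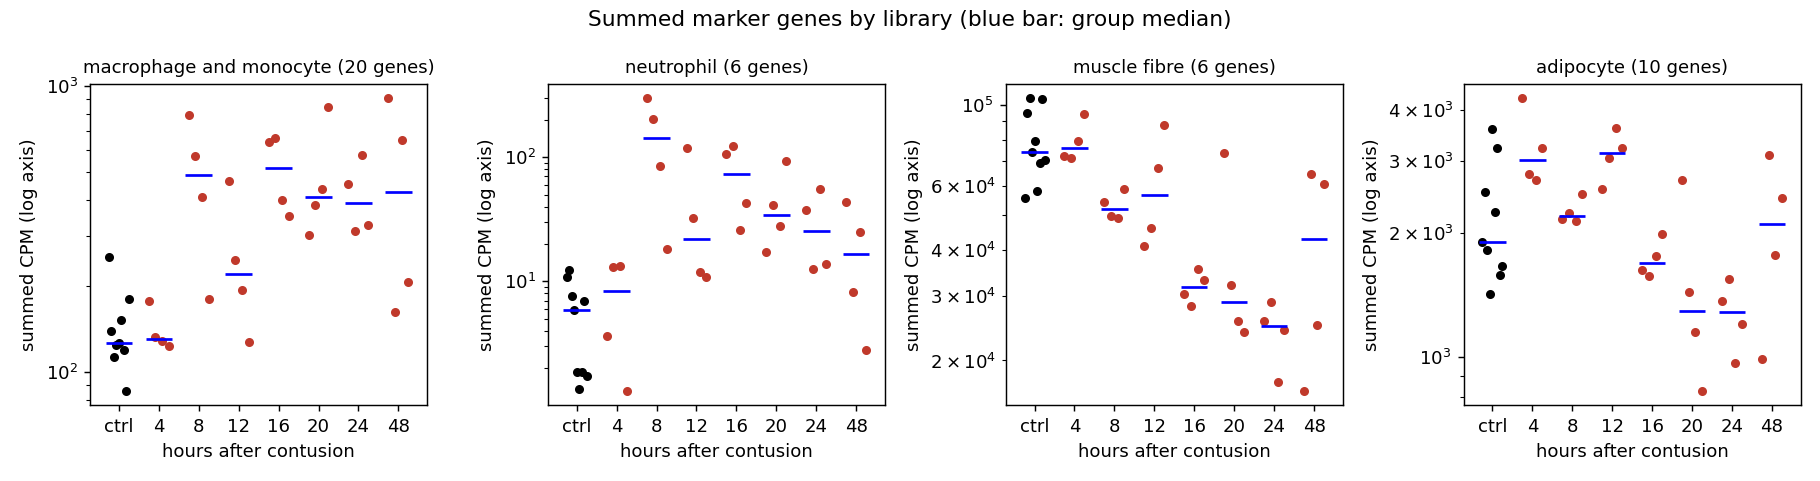
Summed CPM of marker genes with a row, on a log axis, by library and hours after contusion; black points are controls, red points injured libraries and blue bars group medians. The macrophage sum is within the control range at 4 h, the neutrophil sum has its highest library at 8 h (298 CPM), and the median muscle fibre sum is lowest at 24 h (24884 CPM), while the 48 h libraries are split.

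The genes around the members were followed through 7 lists of 158 genes, 114 of them with a row. Genes of TREM2-DAP12 signalling rose widely: of 24 tested, 18, 10, 19, 20, 19 and 16 were higher by edgeR from 8 to 48 h in order, with a median log2 change of 2.31 at 8 h and 1.44 at 48 h. Over all genes 12.8% to 26.8% were higher at these times. At 4 h edgeR called none of the 24 higher (3 at an unadjusted p under 0.05, none by DESeq2). FCER1G, an adaptor related to DAP12, rose from 5.85 ± 1.86 CPM (SD, n = 9) to 49.5 ± 22.7 CPM (SD, n = 4) at 20 h (log2 change 3.07 ± 0.43, SE, edgeR adjusted p = 1.44e-06), and BTK, a kinase downstream of such adaptors, from 1.18 ± 0.27 to 12.4 ± 5.54 CPM at 24 h (3.37 ± 0.48, adjusted p = 1.20e-06). MALT1, a paracaspase of NF-kB signalling, was the single gene of the list lower from 4 to 24 h and fell from 10.3 ± 1.41 to 3.48 ± 0.44 CPM at 8 h (-1.56 ± 0.19, adjusted p = 1.31e-07). With the 5 sets as a term 6 of the 24 were higher at 16 h and 15 at 8 h.

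Of 30 genes of the phagolysosome and lipid droplets, 2 rose at 4 h, 13 at 8 h and 7 at 12 h, then 18, 18, 23 and 22 from 16 to 48 h, while 2, 5, 3, 3, 3, 1 and 1 fell. Over all genes 9.22% to 26.8% rose and 7.45% to 28.2% fell at these times. CTSL, the lysosomal protease cathepsin L, rose from 1.88 ± 1.43 to 42.7 ± 26.8 CPM at 8 h (log2 change 4.50 ± 0.57, SE, edgeR adjusted p = 2.23e-07). CD9, a tetraspanin found on lipid-laden macrophages and many other cells, rose from 74.9 ± 28.5 to 1030 ± 457 CPM at 20 h (3.78 ± 0.32, adjusted p = 7.94e-10) and fell between 24 and 48 h (-2.13 ± 0.40, adjusted p = 4.79e-04). ACP5, the tartrate-resistant acid phosphatase, which acts on osteopontin, was at -0.11 ± 0.69 at 8 h and rose from 1.06 ± 0.68 to 26.6 ± 28.1 CPM at 48 h (4.62 ± 0.57, adjusted p = 3.10e-06). GUSB, the lysosomal glucuronidase, rose from 9.00 ± 1.65 to 36.5 ± 25.6 CPM at 48 h (2.02 ± 0.25, adjusted p = 3.10e-06). The fatty acid receptor CD36, named after its values were seen, was the one gene of the list lower at 24 h (-1.77 ± 0.38, adjusted p = 2.45e-04) and at 48 h (-1.31 ± 0.37, adjusted p = 0.0117). At 16 h, 5 of the 30 were higher with the sets as a term, and 6 at 8 h.

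Receptors and processing enzymes of osteopontin were called higher more often than all genes. Up to 24 h their falls were near or below the share over all genes. Of 15 tested, 4 rose and 1 fell at 4 h, 9 rose and 4 fell at 8 h, 8 rose and 4 fell at 20 and 24 h, and 6 rose and 2 fell at 12 and 48 h. Over all genes 9.22% rose and 9.06% fell at 4 h, and 25.8% and 28.2% at 8 h. At 12 h these shares were 16.3% and 14.7%, and at 48 h 12.8% and 7.45%. They were 25.4% and 26.2% at 20 h, and 26.8% and 27.1% at 24 h. CD44, a hyaluronan receptor that also binds osteopontin, rose from 13.2 ± 4.58 to 132.8 ± 71.5 CPM at 8 h (log2 change 3.33 ± 0.44, SE, edgeR adjusted p = 3.29e-07). PLAU, the urokinase plasminogen activator, rose from 22 ± 6.45 to 418 ± 190.0 CPM at 8 h (4.25 ± 0.46, adjusted p = 1.90e-08). TGM2, a transglutaminase that cross-links osteopontin, rose from 67.9 ± 14.1 to 306 ± 80.3 CPM at 20 h (2.17 ± 0.25, adjusted p = 1.07e-07). ITGB6, an epithelial-type integrin subunit, fell from 71.7 ± 37.5 to 2.55 ± 2.31 CPM at 16 h (-4.82 ± 0.66, adjusted p = 9.95e-07). The 2 chains of the classical osteopontin receptor, named after their values were seen, went apart: ITGB3 rose by 1.53 ± 0.22 at 4 h (adjusted p = 3.59e-05), whereas ITGAV was at -0.15 ± 0.19 at 4 h and fell by 0.79 ± 0.20 at 8 h (adjusted p = 0.00139). With the sets as a term 5 of the 15 were higher at 8 h and 3 at 16 h.

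**Figure D5:**
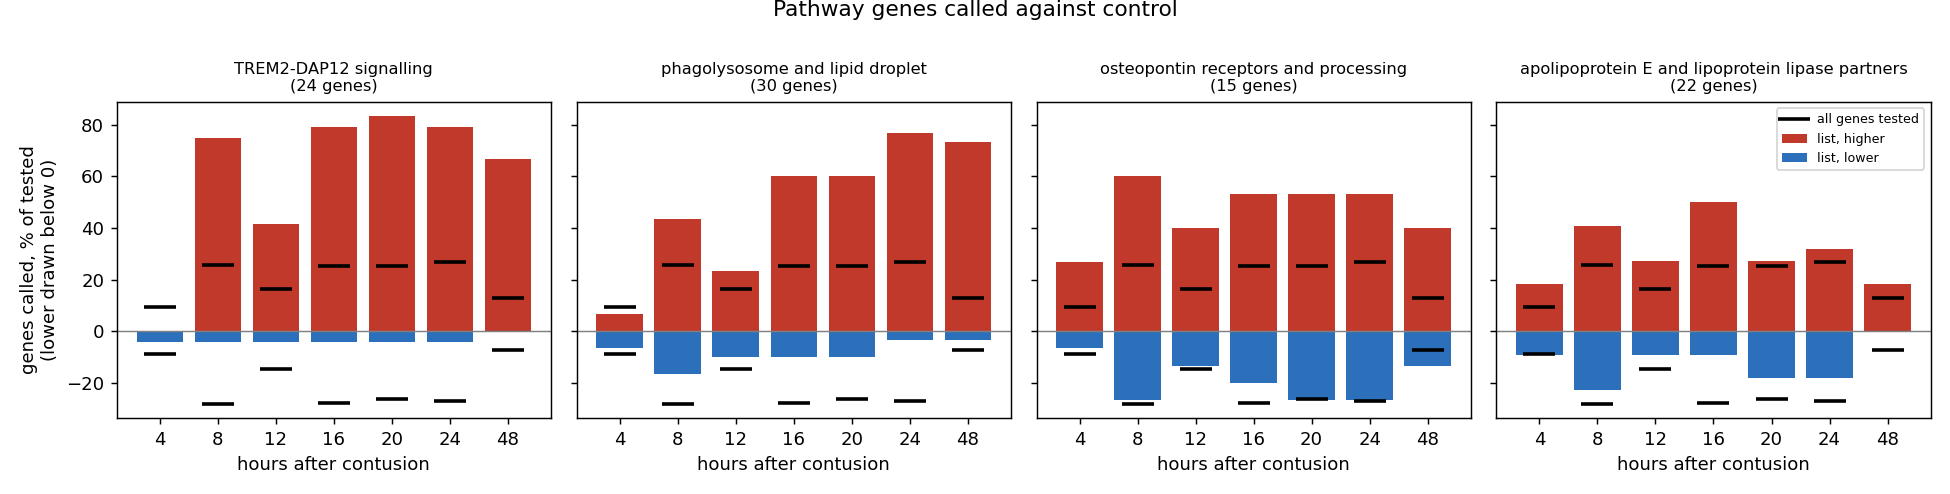
Percentage of tested genes in 4 lists called higher (red, above 0) or lower (blue, below 0) against control at each time; black dashes give the percentage over all 9411 genes. TREM2-DAP12 genes reach 20 of 24 at 20 h and phagolysosome genes 23 of 30 at 24 h. From 8 h on, the red bars for partners of apolipoprotein E and lipoprotein lipase lie nearer the dashes than those of TREM2-DAP12 genes. They still reach 11 of 22 at 16 h.

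For rises from 8 h on, partners of apolipoprotein E and lipoprotein lipase were nearer to the share over all genes than TREM2-DAP12 genes were. Over all genes 9.22% rose and 9.06% fell at 4 h, 25.8% and 28.2% at 8 h, and 25.3% and 27.8% at 16 h. At 24 h these shares were 26.8% and 27.1%, and at 48 h 12.8% and 7.45%. The rises in the list at 16 h, 11 of 22, stood well above the share. Of 22 tested, 4 rose and 2 fell at 4 h, 9 rose and 5 fell at 8 h, 11 rose and 2 fell at 16 h and 7 rose and 4 fell at 24 h. At 48 h 4 rose, and edgeR and DESeq2 called none lower there (2 at an unadjusted p under 0.05). FURIN, a protease that inactivates lipoprotein lipase, rose from 36.7 ± 4.87 to 115 ± 46.6 CPM at 8 h (log2 change 1.65 ± 0.20, SE, edgeR adjusted p = 7.03e-08). CLU, which encodes clusterin, a lipoprotein that binds TREM2, rose from 112 ± 31.5 to 739 ± 677 CPM at 48 h (2.73 ± 0.34, adjusted p = 3.10e-06). SOAT1, which esterifies cholesterol for storage in droplets, rose from 4.54 ± 1.02 to 29.1 ± 15 CPM at 20 h (2.68 ± 0.40, adjusted p = 3.88e-06). SEL1L, needed for the maturation of lipoprotein lipase, rose from 80.7 ± 11.7 to 172 ± 33 CPM at 24 h (1.09 ± 0.15, adjusted p = 7.31e-07). At 8 h ANGPTL4, an inhibitor of lipoprotein lipase, rose by 2.09 ± 0.37 (adjusted p = 2.22e-05) and GPIHBP1, its capillary anchor, fell by 1.11 ± 0.33 (adjusted p = 0.00483), both named after their values were seen. With the sets as a term 1 of the 22 was higher at 4 h and 5 at 16 h.

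Of 9 tested galectins and partners of galectin-3, 5 rose and 2 fell at 8 h, 3 rose and 2 fell at 16 h, 4 rose and 2 fell at 20 and 24 h, and 3 rose at 48 h. Over all genes 25.8% rose and 28.2% fell at 8 h, 25.3% and 27.8% at 16 h, and 12.8% rose at 48 h. At 20 h 25.4% rose and 26.2% fell, and at 24 h 26.8% and 27.1%. Falls in the list were thus no more frequent than over all genes at these times. At 4 h edgeR and DESeq2 called none of the 9, with 1 higher at an unadjusted p under 0.05. LGALS8, galectin-8, which like galectin-3 marks damaged lysosomes, rose from 27.6 ± 3.29 to 68.1 ± 6.43 CPM at 24 h (log2 change 1.30 ± 0.19, SE, edgeR adjusted p = 1.49e-06). CHMP4B, a membrane repair subunit, rose from 127 ± 16.4 to 336 ± 106 CPM at 24 h (1.40 ± 0.19, adjusted p = 8.60e-07), and SLC3A2 from 67.8 ± 23.5 to 187 ± 25.4 CPM at 16 h (1.46 ± 0.24, adjusted p = 9.89e-06). TFRC, the transferrin receptor, fell from 460.4 ± 335 to 27.1 ± 13.4 CPM at 24 h (-4.09 ± 0.66, adjusted p = 7.82e-06). LGALS1, galectin-1, named after its values were seen, fell by 1.27 ± 0.26 at 8 h (adjusted p = 1.38e-04), when LGALS3 was at 1.23 ± 0.34.

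MITF, TFEB and TFE3 are transcription factors of lysosomal genes, and GPNMB is a known target of this family. Of 13 tested genes of the family, its regulators and relatives of GPNMB, 0 rose and 2 fell at 4 h (none higher by DESeq2 or at an unadjusted p under 0.05), 3 rose and 4 fell at 8 and 12 h, 5 rose and 4 fell at 16 and 24 h, and 2 rose and 2 fell at 48 h. At 8 h these counts were near the shares over all genes, 25.8% higher and 28.2% lower. Those shares were 16.3% and 14.7% at 12 h, 25.3% and 27.8% at 16 h, and 26.8% and 27.1% at 24 h. At 48 h they were 12.8% and 7.45%, and at 4 h 9.22% and 9.06%. Nothing is read from the counts of this list. SQSTM1, the autophagy receptor p62, rose from 681 ± 167 to 2970 ± 289 CPM at 16 h (log2 change 2.12 ± 0.21, SE, edgeR adjusted p = 6.36e-09). TFE3 rose from 25.7 ± 3.75 to 46.2 ± 4.74 CPM at 16 h (0.85 ± 0.12, adjusted p = 2.05e-06) and RRAGC, a GTPase that controls these factors, from 52.4 ± 6.15 to 89.2 ± 5.16 CPM at 24 h (0.77 ± 0.12, adjusted p = 3.98e-06). FNIP1, a folliculin partner, fell from 99.1 ± 21.6 to 47.5 ± 6.90 CPM at 8 h (-1.06 ± 0.16, adjusted p = 2.71e-06). MITF itself, named after its values were seen, fell by 0.82 ± 0.24 at 24 h (adjusted p = 0.00395), and TFEC, its macrophage relative, rose by 3.78 ± 0.64 at 8 h (adjusted p = 1.34e-05).

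Of 6 genes of the chitinase family besides CHIT1, only CHID1 had a row. It fell from 32.2 ± 6.41 to 20.7 ± 5.98 CPM at 4 h (log2 change -0.64 ± 0.17, SE, edgeR adjusted p = 0.0112) and by 0.46 ± 0.17 on the log2 scale at 8 h (adjusted p = 0.0255). The call at 4 h was lost without replicate 2 (adjusted p = 0.0515) or replicate 4 (adjusted p = 0.0637) of that time and with the sets as a term (adjusted p = 0.167).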

How the data were processed

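The deposited values are raw counts per gene symbol, 1 table of 9418 rows and 37 columns, each matched to a sample by title. Per the submitters' processing notes, Trimmomatic, HISAT2 2.2.1 and HTSeq were used with Sscrofa11.1. The annotation, the strand setting and the rule that kept these rows are not given in the sources used here. No gene's highest count is under 101, and the totals cover these rows only, not the sequencing depth. In R 4.3.3, edgeR 4.0.16 scaled the counts by TMM, filterByExpr kept 9411 genes, and robust quasi-likelihood models with the group as the only factor were fitted to all 37 libraries; SE is the absolute log2 change over the root of F. P-values were adjusted over all genes. The fit was tested on simulated counts. Pairs within a group were compared by chi-square, and the lowest value per degree of freedom was 16.1, so none was counted as a duplicate.

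The members, gene lists and library sets were chosen with earlier results of these data known. Named genes are the members, in each list the 4 genes with the smallest p over the 8 comparisons, the 3 genes nearest each member, and markers; 1 gene so chosen is not reported here. Sets follow column totals above 20000000 (set 3), C1QBP above 8 CPM (set 1), NDUFAF8 below 4 CPM (set 2) and ND6 at most 32 CPM (set 4), in that order, with the rest in set 5. Alternatives were RLE size factors, column totals, other filters, DESeq2 1.42.0, a replicate block, the sets as a term, and leaving out each library. Added after seeing the data were leaving out 48 h libraries 2 and 4, and controls 5 to 9. Gene positions come from RefSeq for Sscrofa11.1, which lists no gene overlapping a member.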

Additional observations from a re-analysis of the deposited data

Results flagged for a closer look

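Each member was examined in each group for a library far from the rest on log2(CPM + 0.5), 56 groups in all. In 2 of them a library was flagged, which is no more than the rate of about 1 in 20 that chance gives. TREM2 in control library 7 was at 0.549 CPM, 5 counts, against 0 to 0.195 CPM in the other 8 controls. TREM2 in 12 h library 4 was at 0 CPM against 1.64 to 2.15 CPM in the other 3, and 3 counts in that library correspond to 0.344 CPM.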

How the results depend on the processing

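No member that was called against control changed direction under any alternative. Of named pathway genes, 223 of 224 results under settings other than leaving out a library kept their direction and side of the threshold. These genes were chosen for the smallest p in their lists, so that outcome was nearly fixed in advance and says little about the lists. Several lists had fewer genes called higher at 16 h with the sets as a term, as given above. With the 5 sets as a term, edgeR called 259 genes at 4 h (1 member, SPP1), 2575 at 16 h and 1108 at 48 h against control, and 842 genes and 0 members from 24 to 48 h. Scaling by column totals gave 3348 genes at 48 h against control and 0 members from 24 to 48 h. Leaving out both 48 h libraries 2 and 4 gave 3448 genes against control and 551 against 24 h. DESeq2 and the replicate block each called 2 members from 24 to 48 h, LPL and TYROBP. The cause of these differences was not tested. Leaving out each library in turn gave 608 (without 4 h replicate 2) to 1954 genes and 1 to 4 members at 4 h, 1827 (without replicate 1) to 3046 genes at 12 h, and 368 (without replicate 1; 694 without replicate 3) to 2732 genes at 48 h. From 24 to 48 h it gave 1048 (without 48 h replicate 4) to 2442 genes and 0 to 2 members. LPL lost its call at 4 h without any one of the 4 injured libraries or of controls 2, 3, 8 and 9, and SPP1 without replicate 2. TREM2 lost its call at 8 h without replicate 1 or 2. At 48 h LPL lost its call in 9 of 13 such fits and TYROBP without control 4, 8 or 9 or replicate 1 or 3. The filter of a mean of at least 5 CPM left TREM2 untested and ended the LPL call at 48 h. Whether the replicate numbers pair libraries was not settled. The mean correlation of deviations was 0.02 for 112 pairs with the same number and -0.01 for other pairs. Single pairs with the same number ran from -0.60 to 0.60, with 45 above 0.1, and 10 of 28 injured libraries were closest to their own number. A mean near 0 cannot show that no libraries are paired, since the sets and tissue make-up also enter these deviations. With the replicate block and controls 5 to 9 left out, TYROBP lost its call at 48 h and APOE gained one at 12 h; without the block, on the same libraries, TYROBP was lost too. Column totals cover selected rows, so the depth behind a zero such as TREM2 at 12 h is known only as counting error.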
